A study of Mus musculus with 4 samples.

Results

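Histone genes were followed in RNA of TDRD6-deficient and control diplotene spermatocytes. Members were taken by gene symbol (Hist1h to Hist4h, H1f, H2a, H2b, H3c, H3f, H4c and H4f genes, without the H2 genes of the major histocompatibility complex), and 110 annotated genes matched. Of these, 91 had a count row of their own among 37718 gene rows and 5 shared a row with an overlapping gene. The other 14 had no row under their GENCODE M21 identifier. The counts were made on Ensembl gene models, so whether those 14 were counted under other identifiers is not known. By symbol the 91 were divided into 51 replication-dependent genes, 10 replacement variants, 21 testis variants, 1 oocyte variant (H1foo) and 8 pseudogenes or antisense RNAs.

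The 4 samples came from testes of mice at 20 days post partum (dpp). The genotypes were compared, with 2 samples each: Tdrd6-/-, which lacks TDRD6, and Tdrd6+/-, which served as control and itself carries 1 disrupted allele. In both, cells were collected with magnetic beads against human CD4 (hCD4), which is expressed under the endogenous Tdrd6 promoter in these mice, so that diplotene cells were enriched but not isolated singly, and each sample pooled at least 4 mice. Library preparation removed ribosomal RNA from total RNA and did not select polyadenylated RNA, so mRNAs without a poly(A) tail were also measured. In such bulk samples, fewer cells of a type and less RNA per cell cannot be told apart.

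Histones package DNA, as pairs of H2A, H2B, H3 and H4 in the nucleosome core and H1 on the linker. Replication-dependent genes lie in clusters, have no introns as a rule and are transcribed in S phase, and their mRNAs end in a conserved stem-loop, bound by SLBP and cut with the help of the U7 snRNP, in place of a poly(A) tail. Replacement variants such as H3.3 and H2A.Z are made outside S phase from polyadenylated, often spliced mRNAs. Male germ cells in addition make testis variants during meiosis (H1t, TH2A, TH2B), and spermatids exchange most histones for transition proteins and then protamines.

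The stem-loop was looked for in the annotated transcripts downstream of the stop codon, since it separates the classes by mRNA end and was not used to choose members. Of 51 replication-dependent genes, 41 had a gene model reaching at least 30 bases past the stop codon, and 35 of these 41 held a match to the stem-loop consensus. Among the replacement variants 1 of 10 did (H2afx, which encodes the DNA damage responsive H2A.X), and among the testis variants 2 of the 9 with such a model did (Hist1h1t and H2bfm). A model that ends soon after 30 bases may miss a loop, as that of Hist2h2aa1 lies 58 bases past its stop codon. A polyadenylation signal, AATAAA within the last 50 bases of a transcript, was present in 9 of 10 replacement variants. It was also found in 11 of those 41 replication-dependent genes, of which 3 held no stem-loop match and the others held both. Hist1h1t and H2bfm held both as well. The most frequent core, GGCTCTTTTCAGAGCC, accounted for 20 matches among genes with a row of their own. Examples with 5 flanking bases on each side, 5′ to 3′, are shown with the core in capitals, as they let an H4 gene, an H1 gene and the exceptions among the other classes be compared:
Hist1h4h: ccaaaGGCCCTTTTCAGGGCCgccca
Hist1h1c: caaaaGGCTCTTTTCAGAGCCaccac
Hist1h1t: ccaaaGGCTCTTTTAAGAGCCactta
H2afx: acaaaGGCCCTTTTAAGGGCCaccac
H2bfm: ccaaaGGCTCTTTTCAGAGCCaccac
In GRCm38 (mm10) the cores lie at chr13:23531458-23531473 (plus strand) for Hist1h4h, chr13:23739512-23739527 (plus strand) for Hist1h1c, chr13:23696525-23696540 (plus strand) for Hist1h1t, chr9:44335240-44335255 (plus strand) for H2afx and chrX:136928071-136928086 (plus strand) for the first of 2 matches in H2bfm.

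The testis genes Hist1h2ba (TH2B) and Hist1h2aa (TH2A) stand head to head on chromosome 13 with 305 bases between their gene models. Their promoter windows, 250 bases before to 50 after the annotated start, share 220 bases. In the Hist1h2ba window these last 50 bases begin with the start codon, so its annotated start is that of the coding sequence. RefSeq promoter windows of GRCm38.p6 are shown, for the testis H2B gene and the testis H1 gene, which had the highest levels of all members, and for Hist1h1a, the only member that passed the test between genotypes. They are chr13:23934107-23934406 on the minus strand, chr13:23695561-23695860 on the plus strand and chr13:23763418-23763717 on the plus strand, written 5′ to 3′ with the TATA box (TATAAA), the CCAAT box, the octamer (ATTTGCAT) and the cAMP response element (TGACGTCA), on either strand, in capitals:
Hist1h2ba: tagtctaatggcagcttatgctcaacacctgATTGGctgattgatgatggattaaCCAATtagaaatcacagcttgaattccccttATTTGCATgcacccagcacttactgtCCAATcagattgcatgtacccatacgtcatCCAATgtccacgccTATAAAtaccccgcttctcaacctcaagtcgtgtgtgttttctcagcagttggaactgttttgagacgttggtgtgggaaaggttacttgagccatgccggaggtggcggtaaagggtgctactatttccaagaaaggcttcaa
Hist1h1t: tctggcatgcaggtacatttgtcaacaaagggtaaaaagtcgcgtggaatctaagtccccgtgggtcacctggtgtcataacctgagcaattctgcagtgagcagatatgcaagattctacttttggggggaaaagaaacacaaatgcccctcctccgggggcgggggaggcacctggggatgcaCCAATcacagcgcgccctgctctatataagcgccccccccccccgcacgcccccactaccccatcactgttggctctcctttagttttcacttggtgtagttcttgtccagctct
Hist1h1a: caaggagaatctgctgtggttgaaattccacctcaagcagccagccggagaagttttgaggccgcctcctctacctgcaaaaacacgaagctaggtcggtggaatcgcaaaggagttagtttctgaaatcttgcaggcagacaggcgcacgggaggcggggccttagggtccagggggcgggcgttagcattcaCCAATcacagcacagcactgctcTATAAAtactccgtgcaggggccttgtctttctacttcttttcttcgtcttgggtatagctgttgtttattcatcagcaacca
The Hist1h2ba window held 4 CCAAT, 1 TATAAA and 1 ATTTGCAT. Promoters were matched for 77 of the 91 members. Of 46 replication-dependent promoters, 60.9% held TATAAA and 80.4% CCAAT, against 13.6% and 37.4% of all 32851 promoters. The octamer ATTTGCAT was found in 15.2% of them and in 1.74% of all promoters, and TGACGTCA in 8.7% and 1.79%. CCAAT was present in all 14 H2A, 11 H2B, 5 H3 and 4 H1 promoters but in 3 of 12 H4 promoters. None of 8 replacement promoters held TATAAA, and 5 of the 8 held CCAAT.

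Gene counts per sample summed to between 26454326 and 31388750. Tdrd6 itself had 33220 and 39322 counts in Tdrd6+/- against 359 and 400 in Tdrd6-/-, so that it was low in both samples labelled Tdrd6-/-. Levels are given below as CPM, the count of a gene relative to the sample's total after TMM scaling between samples. Levels of different genes are compared only as CPM per kb of annotated exon. Exon lengths came from GENCODE M21, whereas the counts used Ensembl gene models. Models end 0 bases past the stop codon for Hist1h2ba and Hist1h4k but 2192 past it for Hist2h2be. The order of genes per kb therefore depends in part on annotation. Differences between genotypes are log2 fold changes, Tdrd6-/- over Tdrd6+/-, from edgeR's quasi-likelihood test over all 16555 rows that passed a filter on low counts, with Benjamini-Hochberg adjustment and a false discovery rate of 0.1. Nothing in the labels says that samples of a genotype came from separate litters or days, so the p-values measure the spread between these samples. Among the other cell type markers, the 12 of spermatogonia and preleptotene cells summed to 30.1 and 29.9 CPM in Tdrd6+/- and 34.8 and 40.6 CPM in Tdrd6-/-. The 10 Sertoli markers summed to 90.01, 91.3, 109 and 116 CPM in the same order, and 13 round spermatid markers to 39.3, 54.2, 66.7 and 62.3 CPM. The 16 pachytene and diplotene markers summed to 10725 and 10839 CPM in Tdrd6+/- and 11013 and 12238 CPM in Tdrd6-/-. All 4 sums were higher in both Tdrd6-/- samples, whereas Leydig (8.84 to 12.4 CPM), peritubular myoid (3.90 to 5.25 CPM) and macrophage markers (9.51 to 19.9 CPM) overlapped between genotypes.

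Testis variants made up most of the histone counts. Hist1h2ba, which encodes TH2B, the germ cell H2B that takes the place of canonical H2B in spermatocytes, alone gave 27.8% to 33.3% of all counts on the 91 members. Per kb it reached 2815 ± 644 CPM (SD, n = 4 samples). Hist1h1t, encoding the meiotic linker histone H1t, followed at 772 ± 78.5 CPM per kb, and the ranges of the 2 genes over the samples did not overlap. H3f3b, which encodes the replacement histone H3.3, came next at 198 ± 29.2 CPM per kb, then Hist1h2aa (TH2A) at 188 ± 23.6 and H2afx at 164 ± 22.1, and neighbours among these 3 overlapped in range. Hist1h4h was the highest replication-dependent gene, at 98.3 ± 25.6 CPM per kb, followed by Hist1h1a at 71.4 ± 25.5, Hist1h4k at 53.1 ± 17.0 and Hist1h4c at 47.5 ± 12.0. From Hist1h4h to H3f3a (43.0 ± 6.16 CPM per kb, the other H3.3 gene) each gene overlapped the next. Per kb, TH2B stood above TH2A in all 4 samples.

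**Figure D1:**
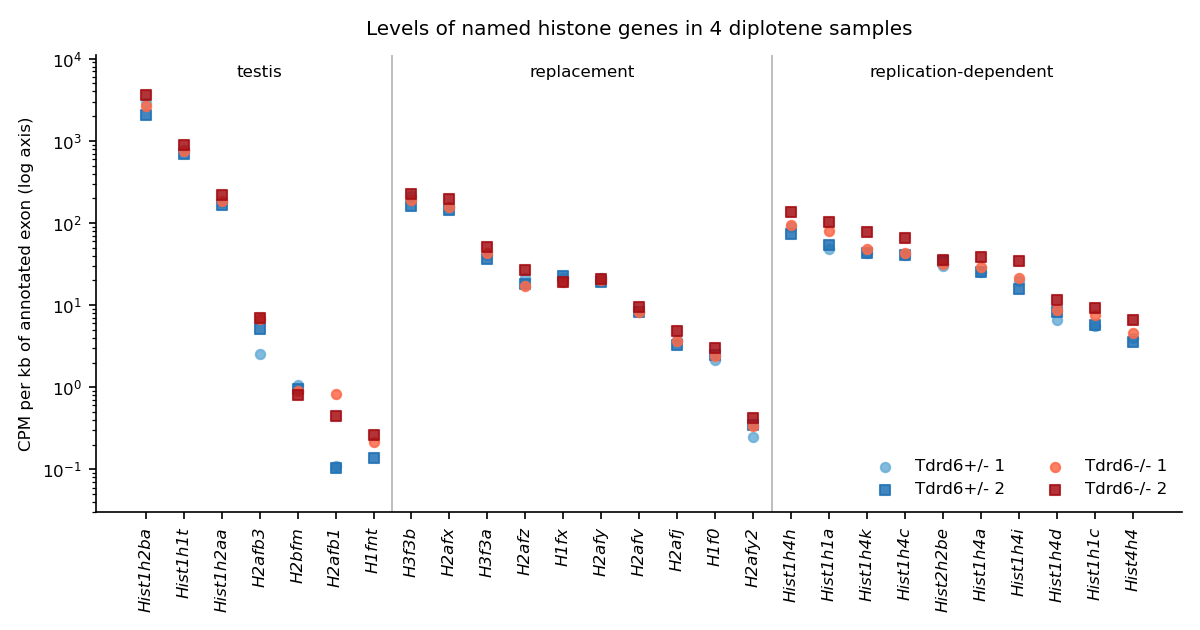
CPM per kb of annotated exon (log axis) of the named histone genes in each of the 4 samples, grouped by class and ordered by mean level. Points are samples and a count of 0 (H1fnt in Tdrd6+/- 1) is not drawn. Hist1h2ba and Hist1h1t stand above all others. The 10 replication-dependent genes shown, chosen by CPM and not by CPM per kb, lie between 4.67 (Hist4h4) and 98.3 (Hist1h4h) on average.

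Spermatid histone variants were near the floor. H2al genes, which encode short H2A variants of condensing spermatids, had 13 rows with 6 counts in all, and the other 5 of 18 annotated H2al genes had no row. In 7 of these 13 genes every short stretch of sequence compared also occurs in another annotated gene. How fragments with several matches were counted is not given, so the low counts of these 7 cannot show that they were not expressed. H2al3 and H2al1j, with 0% of such stretches shared, also had 0 counts in each sample. H1fnt, a spermatid linker histone, had 0, 5, 9 and 11 counts in the 4 samples (Tdrd6+/- 1 and 2, then Tdrd6-/- 1 and 2), and H2afb1 had 1, 1, 9 and 5. Neither passed the filter on low counts. H2afb3, another short testis H2A gene, had 23, 49, 74 and 78 counts, with both Tdrd6-/- samples above both controls, and a log2 fold change of 0.85 (SE 0.35, adjusted p = 0.246). Without Tdrd6+/- replicate 2 this was 1.44 (adjusted p = 0.0827 in edgeR), past the threshold, and without Tdrd6+/- replicate 1 it was 0.45 (adjusted p = 0.741). H2bfm, an X-linked testis H2B gene, had 29, 28, 30 and 27 counts (log2 fold change -0.24, SE 0.38, adjusted p = 0.866).

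The first comparison asked whether loss of TDRD6 altered histone mRNA. Of the 60 histone rows tested, 1 rose in Tdrd6-/- and 0 fell at the false discovery rate of 0.1 in edgeR, where 1.02% of all 16555 rows rose and 3.78% fell. The 4 joined rows with a histone gene had log2 fold changes of 0.12 to 0.33 and are not counted among the 60. The 1 row was Hist1h1a, the gene of linker histone H1.1. With Tdrd6-/- replicate 2 left out 0 were called, and with Tdrd6-/- replicate 1 left out 13. Leaving out Tdrd6+/- replicate 1 or 2 gave 4 and 2. At an unadjusted p under 0.05 there were 18 of 60 histone rows in edgeR, where 14% of all rows were, and DESeq2, which tested 46 of them, also called 1. Hist1h1a lies at chr13:23763666-23764406 on the plus strand and consists of 1 exon of 741 bases, of which 48 follow the stop codon. Its gene model holds no stem-loop match, but may end too early for one. A loop placed as in Hist1h1e, 40 bases past the stop codon, would not fit in it whole. Loops placed as in the other H1 genes with a match would fit: Hist1h1c (24 bases), Hist1h1d (31) and Hist1h1t (29). None of the 50-base words of Hist1h1a occurs in another annotated transcript.

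Hist1h1a had 35.9 and 39.5 CPM in Tdrd6+/- and 59.7 and 76.4 CPM in Tdrd6-/- (941, 1099, 1887 and 2446 counts). Both Tdrd6-/- samples lay above both controls, with more spread between them. The change was 1.81-fold (log2 fold change 0.85, SE 0.15, adjusted p = 0.00215 in edgeR). Without Tdrd6-/- replicate 2 it was 0.67 on the log2 scale with an adjusted p of 0.116, and with no filter on low counts the adjusted p was 0.138. The other 4 replication-dependent H1 genes had log2 fold changes from 0.16 (Hist1h1d) to 0.56 (Hist1h1c, H1.2, adjusted p = 0.175), none of which passed.

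Replication-dependent genes as a class lay on the same side. Of 41 tested, 40 had a log2 fold change above 0, where 51.7% of all rows did, with a median of 0.48 beside 0.01 over all rows. In 26 of the 41 both Tdrd6-/- samples exceeded both controls, where 20.1% of all rows did. Only Hist1h1a passed the test, and 15 of the 41 had an unadjusted p under 0.05, beside 14% of all rows. The members share sequence, chromosome cluster and samples, and are no replicates of each other. Tdrd6-/- replicate 2 held the highest CPM for 34 of the 41 and Tdrd6-/- replicate 1 for 4. Leaving out Tdrd6-/- replicate 2 gave a class median of 0.25, and leaving out Tdrd6-/- replicate 1 a median of 0.71. The higher sums of spermatogonial, Sertoli, spermatid and pachytene and diplotene markers given above moved the same way, and their part in the class median was not tested.

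All 11 H4 rows tested were above 0, and in 10 of them both Tdrd6-/- samples exceeded both controls, with a median log2 fold change of 0.52. Medians were 0.34 for 5 H1 rows, 0.41 for 9 H2A rows, 0.43 for 11 H2B rows and 0.52 for 5 H3 rows. Whether the families differ was not tested. Summed over its 13 rows, H4 stood at 145 and 136 CPM in Tdrd6+/- and at 161 and 238 CPM in Tdrd6-/-. The 6 replication-dependent H3 rows summed to 3.90, 4.52, 5.66 and 7.72 CPM in the same order, again without overlap. This sum is not that of the whole family, as Hist1h3d, Hist1h3f, Hist1h3g, Hist1h3h and Hist1h3i had no row and Hist2h3c1 shared one. The 2 genes of the replacement histone H3.3 together gave 605 to 855 CPM.

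Of the H4 genes, Hist1h4h had 41.9 and 34.9 CPM in Tdrd6+/- and 44.97 and 63.1 CPM in Tdrd6-/- (log2 fold change 0.49, SE 0.17, adjusted p = 0.132). Hist1h4c had 33.7, 33.4, 34.9 and 53.7 CPM in the same order (0.40, SE 0.18, adjusted p = 0.294). In both genes the Tdrd6-/- samples did not overlap the controls, but Tdrd6-/- replicate 1 lay close to them. Hist1h4i had 14.4, 11.5, 15.7 and 24.7 CPM (0.64, SE 0.21, adjusted p = 0.121). Hist1h4k (0.57, adjusted p = 0.177), Hist1h4a (0.41, adjusted p = 0.350), Hist4h4 (0.56, adjusted p = 0.187) and Hist1h4d (0.43, adjusted p = 0.399) had 9.92 to 16.6 CPM on average, and none passed the test. Without Tdrd6-/- replicate 1, Hist1h4h (0.72), Hist1h4i (0.93), Hist1h4k (0.87), Hist1h4c (0.68) and Hist4h4 (0.81) passed, with adjusted p from 0.0136 to 0.0644. Without Tdrd6-/- replicate 2 the log2 fold changes of these 5 were 0.07 (Hist1h4c) to 0.28 (Hist1h4i) and none passed. Without Tdrd6+/- replicate 1, Hist1h4h (0.64, adjusted p = 0.0804) and Hist1h4i (0.82, adjusted p = 0.0925) passed. Hist2h2be, a cluster H2B gene whose model ends in a polyadenylation signal and holds no stem-loop match, had 78.2, 89.6, 83.8 and 92.4 CPM and overlapped between genotypes (0.07, SE 0.14, adjusted p = 0.892).

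**Figure D2:**
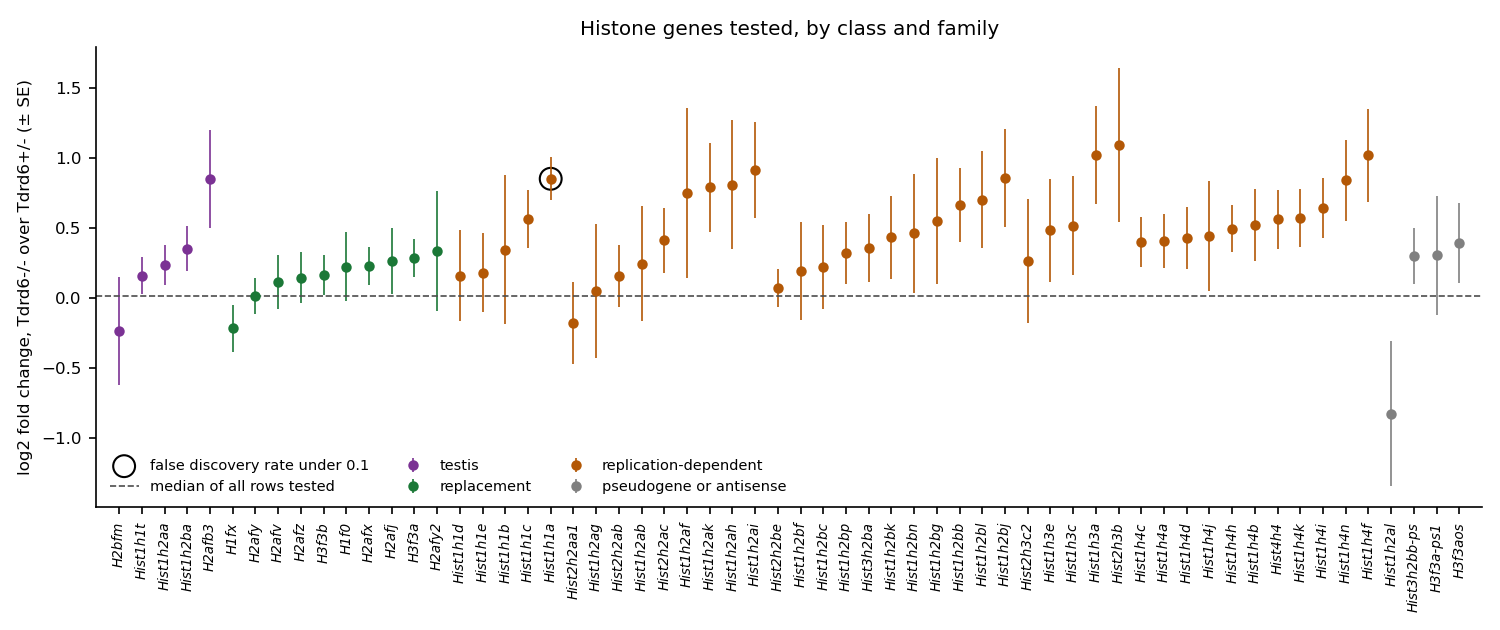
Log2 fold change (Tdrd6-/- over Tdrd6+/-, error bars 1 SE derived from edgeR's F statistic) of the 60 histone rows tested, by class and, for replication-dependent genes, by family (H1, H2A, H2B, H3, H4 from left to right). The dashed line is the median of all rows tested (0.01), and the circle marks Hist1h1a, the only row past the false discovery rate of 0.1.

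The class was then divided by features that the symbols do not give. Rows with a stem-loop match had a median log2 fold change of 0.44 (28 rows), those whose model reached past the stop codon without a match 0.54 (4 rows), and those whose model ended by the stop codon 0.70 (9 rows). Of the 4 rows without a match, Hist1h1a and Hist2h3b have models of only 48 and 37 bases past the stop codon, which may end before a loop. Rows with a polyadenylation signal in the model had a median of 0.41 (7 rows). With TATAAA in the promoter the median was 0.43 (23 rows) and without it 0.54 (14 rows). The 15 rows with a mean of 5 CPM or more had a median of 0.43 and the 26 below it 0.50. The 33 rows on chromosome 13 were all above 0 (median 0.52), and of the 8 rows elsewhere 7 were (median 0.31). These are descriptions of overlapping groups, and no difference between them was tested.

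Copies limit how far single replication-dependent rows can be read. A median of 52.3% of the 50-base words of a replication-dependent gene occurred in another annotated gene, against 4.15% for replacement variants. The rows of Hist1h2bq, Hist1h2br, Hist1h2ao, Hist1h2ap and Hist1h4m held 0 to 4 counts in all, with 88.7% to 97.3% of their words shared. Other rows with as many shared words held counts, such as Hist1h2ai (90.1% shared, 23, 37, 64 and 69 counts) and Hist2h2aa1 (89.4% shared, 72, 70, 80 and 68 counts). For the 11 tested rows with under 25% of shared words the median log2 fold change was 0.40, all above 0, and for the 30 others 0.52. How fragments with several matches were counted is not given in the sources used here. The counting strand is not given either, although the kit was directional, and 14 of the 14 replication-dependent H2A genes share exon bases with an annotated RNA on the opposite strand.

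No replacement variant passed the test. Of 10 tested 0 passed in edgeR or DESeq2, 1 had an unadjusted p under 0.05, and the median log2 fold change was 0.19. The median was 0.05 without Tdrd6-/- replicate 2 and 0.37 without Tdrd6-/- replicate 1. H3f3b had 636 and 477 CPM in Tdrd6+/- and 572 and 676 CPM in Tdrd6-/-, which overlapped (log2 fold change 0.16, SE 0.15, adjusted p = 0.70). H3f3a had 143, 128, 152 and 179 CPM, with both Tdrd6-/- samples above the controls (0.29, SE 0.13, adjusted p = 0.337). H2afx had 218, 201, 219 and 272 CPM (0.23, SE 0.14, adjusted p = 0.508), and the lower Tdrd6-/- sample barely cleared the higher control.

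H2afz, which encodes H2A.Z, had 38.1, 32.4, 30.2 and 47.7 CPM and overlapped (0.14, SE 0.18, adjusted p = 0.816). H2afy, encoding the large variant macroH2A1, had 147, 131, 138 and 143 CPM and was nearly level (0.01, SE 0.13, adjusted p = 0.980). H1fx was the 1 replacement gene below 0, with 26.3 and 27.9 CPM in Tdrd6+/- and 23.2 and 23.4 CPM in Tdrd6-/- (-0.22, SE 0.17, adjusted p = 0.629). H2afv, H2afj, H1f0 and H2afy2, at 0.730 to 13.9 CPM on average, had log2 fold changes of 0.12 to 0.34 and adjusted p of 0.70 to 0.87.

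No testis variant passed in edgeR or DESeq2 either, and 2 of the 5 tested had an unadjusted p under 0.05. Hist1h2ba had 1101 and 798 CPM in Tdrd6+/- and 1026 and 1398 CPM in Tdrd6-/-, so that 1 control lay above 1 Tdrd6-/- sample (log2 fold change 0.35, SE 0.16, adjusted p = 0.314). Without Tdrd6+/- replicate 1 it was 0.61 with an adjusted p of 0.0469, and without Tdrd6-/- replicate 1 it was 0.56 with 0.0876. Hist1h1t had 699, 631, 684 and 802 CPM and overlapped (0.16, SE 0.13, adjusted p = 0.673). Hist1h2aa had 69.5, 65.1, 72.2 and 86.4 CPM, both Tdrd6-/- samples above the controls (0.24, SE 0.14, adjusted p = 0.496). The median of the 5 was 0.24.

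Summed counts of each class were compared as CPM of the gene counts without TMM scaling, with an exact two-sided permutation test whose smallest possible p with 2 against 2 samples is 0.33. The 51 replication-dependent rows summed to 328 and 320 in Tdrd6+/- and to 401 and 524 in Tdrd6-/-, a ratio of 1.43 (p = 0.333, exact), and the genotypes did not overlap. Testis variants summed to 1853, 1426, 1854 and 2335, a ratio of 1.28 (p = 0.333, exact), where the lower Tdrd6-/- sample exceeded the higher control by 0.99 only. After TMM scaling the genotypes overlapped for testis variants (ratio 1.21, p = 0.667, exact). Replacement variants summed to 1223, 973, 1203 and 1399 and overlapped (ratio 1.18, p = 0.667, exact). Adjusted over the 3 classes these were 0.5, 0.5 and 0.667.

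**Figure D3:**
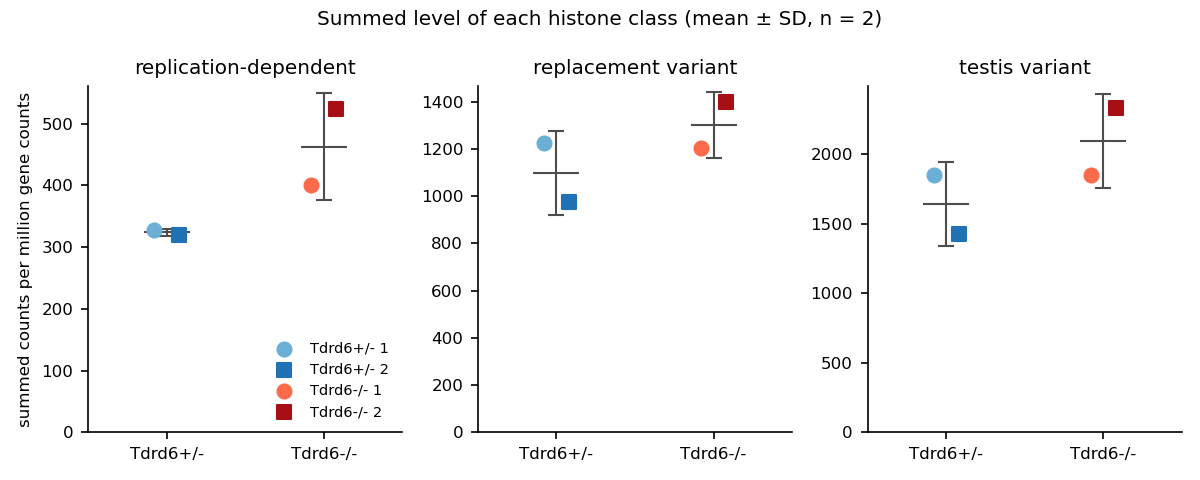
Summed counts of each class as CPM of the gene counts without TMM scaling, in each sample (points), with the mean and SD of 2 samples per genotype. Replication-dependent genes were at 324 ± 5.14 in Tdrd6+/- and 462 ± 86.8 in Tdrd6-/-, without overlap, and replacement variants overlapped.

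Factors that process and place histones were then read from gene lists of 17 to 25 tested genes, beside which 1.02% of all rows rose and 3.78% fell, so that 1 or 2 lower calls in a list of this size are no result about the list. Of 25 tested genes of histone mRNA 3′ processing 2 passed, both lower (median of the list 0.03). Cstf3 (-0.81, adjusted p = 0.00148) and Upf1 (-0.54, adjusted p = 0.0214) also serve other mRNAs, in cleavage at poly(A) sites and in RNA decay. The factors that act on the stem-loop mRNAs alone did not pass: Slbp had 160, 142, 153 and 181 CPM (0.14, adjusted p = 0.721), Lsm10 a log2 fold change of 0.15 (adjusted p = 0.832) and Lsm11 of 0.17 (adjusted p = 0.862), the last 2 being U7 snRNP proteins. Npat, the coactivator of the histone clusters, had 66.6, 70.4, 58.2 and 53.3 CPM, below the controls in both Tdrd6-/- samples (-0.30, SE 0.14, adjusted p = 0.342). Among 24 chaperone and deposition genes 2 passed, both lower (median -0.02), Srcap, which loads H2A.Z (-1.13, adjusted p = 6.49e-05), and Supt6, an H3 chaperone of elongating polymerase (-0.41, adjusted p = 0.0941). Of 24 S phase and replication genes 1 passed, Uhrf1, which binds newly replicated DNA (-0.47, adjusted p = 0.0421), and the median was 0.11.

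Of 17 tested genes of the histone to protamine transition 1 rose and 2 fell. Hils1, a linker histone of elongating spermatids, had 1.72 and 2.37 CPM in Tdrd6+/- and 5.28 and 5.34 CPM in Tdrd6-/-, a 2.59-fold rise (log2 fold change 1.37, SE 0.28, adjusted p = 0.0057). The round spermatid markers Acrv1 (0.96, adjusted p = 0.0565) and Spaca1 (0.83, adjusted p = 0.0359) also rose. Tnp1 had 0, 3, 10 and 9 counts, Tnp2 1, 1, 0 and 4, Prm1 0, 0, 0 and 4 and Prm2 7, 4, 3 and 7, too few to test. The fallen genes were Mdc1, a partner of phosphorylated H2A.X (-1.05, adjusted p = 6.5e-05), and Piwil1, which encodes the piRNA-binding MIWI (-0.44, adjusted p = 0.0773). Among the 16 markers of pachytene and diplotene cells, Sycp1 (0.60, adjusted p = 0.0467) and Sycp2 (0.44, adjusted p = 0.09997) of the synaptonemal complex rose and Piwil1, also in this list, was the 1 that fell, while 11 of the 16 lay above 0. Compared with these lists, other protein-coding genes of 1 exon had a median of 0.11 over 387 rows, with 252 above 0, beside 0.48 for the replication-dependent rows.

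**Figure D4:**
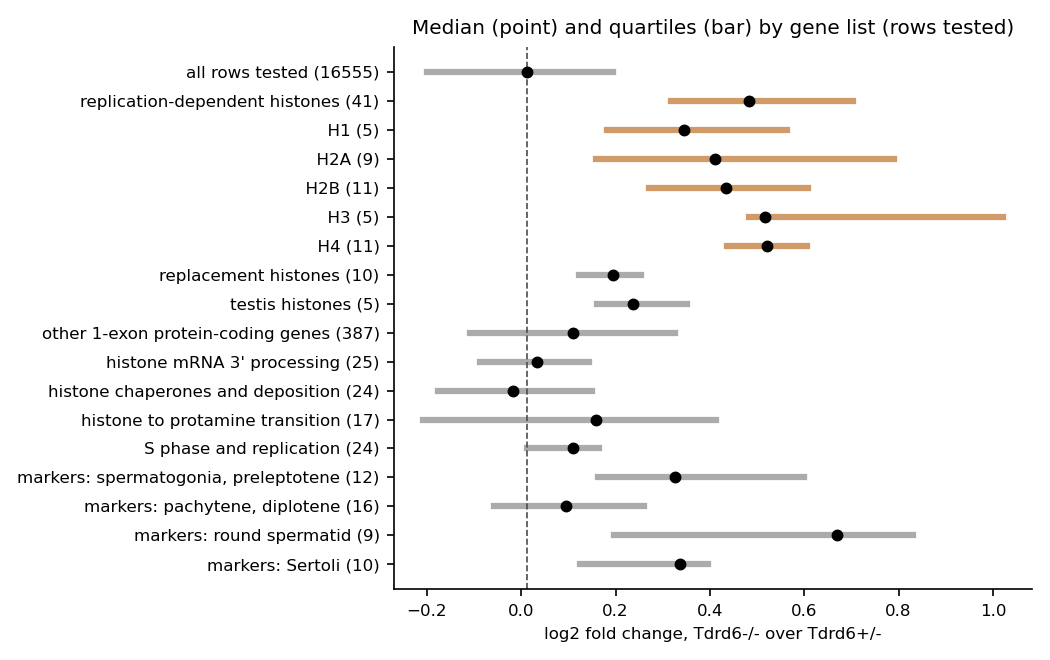
Median (points) and quartiles (bars) of the log2 fold change, Tdrd6-/- over Tdrd6+/-, by gene list, with the number of rows tested in brackets and the median of all rows as a dashed line. Replication-dependent histones (0.48) stand right of the S phase list (0.11) and of other 1-exon genes (0.11), and round spermatid markers (0.67) stand further right. Markers of spermatogonia and preleptotene cells (0.33) and of Sertoli cells (0.34) lie closer to the histones, and pachytene and diplotene markers lie at 0.09.

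Splicing could be followed only in the few histone genes with introns. Intron counts of 32 histone introns entered the usage model, which asks whether an intron's share of the intron counts of its gene differs between genotypes, and 14 passed its filter on low counts, in H2afy, H2afv, H3f3a and H3f3b. Of these 0 changed in this model, where 1.94% of all 28903 introns did, and 0 had an unadjusted p under 0.05. In edgeR's usage test 0 histone introns changed, and 5 of all 96360 did. The smallest p was that of the first numbered intron of H3f3a (adjusted p = 0.722). Of 78 exon segments and junctions that passed, in 8 genes, 0 changed, where 0.221% of all 147710 did, and 3 had an unadjusted p under 0.05. In edgeR's usage test 0 histone segments or junctions changed, and 80 of all 251638 did. The smallest p came from 1 exon segment of H2afy, with 175, 105, 127 and 84 counts (log2 fold change -0.67, adjusted p = 0.792). Intron counts per 100 gene counts were 62.5, 47.4, 49.2 and 35.7 for H2afy and 21.8, 19.4, 20.5 and 14.2 for H3f3a, and in both the lowest value was that of Tdrd6-/- replicate 2, which also had the fewest intron counts of all genes (9603669 against 12258600 to 13937818).

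The pseudogene Hist1h2al, singled out after its values were seen, varied widely between samples of the same genotype. It had 471 and 156 counts in Tdrd6+/- and 374 and 46 in Tdrd6-/-, and the genotypes overlapped (log2 fold change -0.83, SE 0.52, adjusted p = 0.528). Without Tdrd6-/- replicate 1 it passed the test, at -3.03 (adjusted p = 1.68e-13 in edgeR). Both low values were those of replicate 2. It lies apart from the main cluster, at chr13:51202727-51203065 on the minus strand, and 67.6% of its 50-base words occur in other genes.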

How the data were processed

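RNA of hCD4-positive testis cells of 2 Tdrd6+/- and 2 Tdrd6-/- samples was sequenced, and the sample titles gave genotype and replicate number. The authors aligned the fragments to mm10 with GSNAP, used Ensembl gene models, and deposited unnormalized counts per gene, exon segment, junction and intron, and the submitters' processing notes name bcl2fastq 1.8.4. Between 69% and 78.1% of the fragments in the intron files fell in rows naming no gene and were left out.

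Members and gene lists were chosen with earlier results of these data known. GENCODE M21 named 37607 of 38924 gene identifiers. Overlapping genes that the files join, 940 rows, were tested but not counted as members. For gene counts, the quasi-likelihood test of edgeR 4.0.16 was run in R 4.3.3 after TMM scaling and filterByExpr. Each SE given is the absolute log2 fold change divided by the square root of this test's F statistic. Alternatives were other scalings, DESeq2 1.42.0, no filter, a replicate block, each sample left out, joined rows left out and a stricter false discovery rate. The study's usage models (DEXSeq for introns, JunctionSeq for exons and junctions) were fitted with DESeq2 on features with at least 10 counts in total. A filter written after DESeq2's independent filter, on the mean count of the feature itself, was then applied. It kept introns with a mean count of at least 85.55 and exons and junctions of at least 53.36. The fits were tested on simulated counts with known changes. Named were testis and replacement variants with at least 10 counts in total, the 10 replication-dependent genes of highest CPM, members past the false discovery rate, Tdrd6, the list genes Slbp, Npat, Lsm10, Lsm11, Hils1, Tnp1, Tnp2, Prm1 and Prm2 and those past the false discovery rate, and the histone intron, exon or junction of smallest p. Other genes named were chosen after their values were seen. Replicates of a genotype differed beyond sampling noise (reduced chi-square 13.7 for Tdrd6+/-, 12.3 for Tdrd6-/-). Stem-loops come from GENCODE M21 transcripts and promoters from RefSeq, GRCm38.p6.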

Additional observations from a re-analysis of the deposited data

How the results depend on the processing

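Hist1h1a was called in 10 of its 12 alternatives, with a log2 fold change of 0.67 to 1.02. The number of histone genes called, 1 in the report, was 3 with upper-quartile scaling, 0 with no filter on low counts and 0 to 13 on leaving out each sample in turn. It was 0 without Tdrd6-/- replicate 2 and 13 without Tdrd6-/- replicate 1, and it was 4 and 2 when Tdrd6+/- replicate 1 or 2 was absent. In each such fit the lone sample of a genotype is assumed to vary like the other genotype. Over all rows, 169 rose and 625 fell. No filter gave 2 and 73, and omitting Tdrd6-/- replicate 2 gave 110 and 147. When Tdrd6+/- replicate 1 or 2 was absent, 59 and 320 rose, and at a false discovery rate of 0.05, 89 rose. The median log2 fold change of replication-dependent genes stayed above 0 under all 11 alternatives (0.25 to 0.71). The testis median, 0.24, was 0.87 in DESeq2 and 0.87 with no filter. Both of these medians also include testis rows that the filter on low counts had left out, beside the 5 tested. Leaving out each sample in turn, the log2 fold change ran from -0.0264 to 0.40 for H3f3b, from -0.0685 to 0.12 for H2afy, from -0.21 to 0.44 for H2afz and from -0.0134 to 0.17 for Hist2h2be, so these 4 changed sign. The summed class difference, Tdrd6-/- minus Tdrd6+/- in unscaled CPM, ran from 77.2 to 199.9 for replication-dependent genes, 78.2 to 328 for replacement and 214 to 696 for testis variants. The cause of these shifts was not tested.

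The labels give both genotypes the numbers 1 and 2 but no shared litter or day, and samples of the same number did not deviate together (r = -0.107 across 12347 genes with a mean count of 50 or more). With the replicate number as a block, 6 histone genes were called, among them the pseudogene Hist1h2al as lower, and with the numbers crossed, chosen after seeing the data, 11 histone genes were called and 364 rows rose. Between the 2 samples numbered 1, which the labels may or may not pair, the summed difference of replacement variants reversed to -19.9 CPM. No histone intron, exon or junction was called in any of the 6 alternatives of each usage test. Few counts limit H1fnt, H2afb1 and the H2al genes, and 2 samples per genotype limit all others.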
